A study of Mus musculus with 8 samples.

Results

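The array carries 16181 probes that are named by a stretch of the mouse genome rather than by a gene. Each name gives a chromosome, a start, an end and a letter F or R, taken here as the forward and the reverse strand, although the files do not define the letters. These region probes cover 4607 names, that is a region on 1 strand, in 3540 regions. The detected ones were selected on a flag of the scanner software, which had to call a probe well above background in duplicate for 1 treatment or more, and 4152 of the 16181 region probes (25.7%) met this rule. They are 4152 of the 55681 non-control probes of the array and of the 25290 non-control probes that met the same rule. The flagged signals are the same ones that are compared below, so counts of detected probes are a description with no test.

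RNA came from primary microglia, the resident macrophages of the brain, of C57BL/6 mice whose age the labels do not give. All cells were treated for 3 h, with PBS alone, or at 20 µg/ml with recombinant Fc, with Fc fused to Ecrg4(71-132), or with Fc fused to Ecrg4(133-148). Ecrg4 is a secreted protein from which peptides are cut, and Fc is the constant part of an antibody, which serves as the control for both fusions. Each treatment has 2 arrays, numbered set 1 and set 2 in the labels, which makes 8 arrays, 4 of each set. The labels do not say whether the sets were separate cultures or animals, so p-values measure only the spread between these samples, which may be technical. All 8 arrays lay on 1 slide and were scanned once, with set 1 in column 1 and set 2 in column 2, so set and slide column cannot be told apart.

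Long noncoding RNAs are transcripts that are not translated, and many are made from stretches of the genome between protein-coding genes. Some stay in the nucleus, where they bind chromatin or scaffold nuclear bodies, and others act in the cytoplasm. In macrophages and microglia, several are known to be induced with inflammatory genes, and they are usually less abundant than coding transcripts. The positions below are those in the probe names, on the build mm9 given in the file headers. Gene annotation and genome sequence of that build were not used here, so whether a region lies between genes, and which gene is nearest, was not checked, and no region sequence is shown.

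Signals are log2 intensities after each array's 75th percentile over non-control spots was set to 0, so each unit is 1 doubling of the signal and a negative value lies below that percentile. The 75th percentile itself was 626 to 809 intensity units in set 1 and 495 to 612 in set 2. Signals of different probes are not compared as amounts of RNA, because probes differ in how well they bind. Microglial markers checked the cells: the 8 used here (Cx3cr1, P2ry12, Tmem119, Aif1, Csf1r, Gpr34, Itgam and Trem2) met the detection rule, 7 of them on all 8 arrays. The cytokine genes Il1b, Tnf and Il6, taken as a check of the treatment, lay above Fc with Ecrg4(71-132) in both sets. For Il1b the difference was 3.01 in set 1 and 5.95 in set 2, for Tnf 1.75 and 4.14, and for Il6 2.03 and 5.91, all on the log2 scale. With Ecrg4(133-148) the differences from Fc were 0.67 and 3.78 for Il1b, 0.37 and 2.43 for Tnf, and 0.21 and 2.90 for Il6. Fc itself lay above PBS in both sets, by 0.98 and 1.69 for Il1b, 1.01 and 1.45 for Tnf, and 0.83 and 1.87 for Il6.

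Region probes were detected less often than probes for genes. The share of 25.7% compares with 60.8% of 26695 probes for RefSeq coding transcripts, 31.4% of 1472 probes for RefSeq noncoding transcripts and 39.1% of the 11333 other probes. Of the region probes, 7565 (46.8%) were well above background on at least 1 array. Of the 4152 detected, 3103 (74.7%) were well above background on all 8 arrays. The other 1049 were not, and 473 of these met the rule through 1 treatment alone. PBS alone brought in 300 of the 473, Fc 78, Ecrg4(71-132) 53 and Ecrg4(133-148) 42. The flag also follows each array's own background: the lowest signal called well above background was -5.08 on both PBS arrays and lay between -5.14 and -4.07 on the other 6 arrays. A probe that entered through a single treatment had to be higher there, so such probes support no difference between treatments.

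Counts per array did not put the treatments in the same order in both sets. In set 1, 5319 region probes were well above background with PBS, 5333 with Fc, 3956 with Ecrg4(71-132) and 4621 with Ecrg4(133-148). In set 2 the counts were 4586, 3873, 4342 and 4033 in the same order. Ecrg4(71-132) thus gave the lowest count in set 1 and lay second to PBS in set 2. On every array the share of region probes well above background, 23.9% to 33.0%, was below that of all other probes, 51.6% to 61.2%.

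Most detected region probes were dim. Of the 4145 that could be tested, after 7 with outlying spots were left out, the mean signal over 8 arrays had a median of -2.37, a 25th percentile of -3.42 and a 75th percentile of -0.79. Detected coding probes had a median of 1.05 and detected RefSeq noncoding probes one of -1.34. The upper tail was long, with a 95th percentile of 2.82 and a maximum of 8.36.

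The 5 region probes with the highest mean signal were well above background on all 8 arrays and varied little between treatments within a set. A_30_P01026458 (chr11:22681800-22707775, R) read 8.18, 8.26, 8.41 and 8.30 in set 1, in the order PBS, Fc, Ecrg4(71-132), Ecrg4(133-148), and 8.41, 8.50, 8.38 and 8.42 in set 2. The probes of the opposite strand of the same region were far dimmer: A_30_P01025682 read 1.43 to 1.64 and A_30_P01025488 -4.37 to -3.73. A_30_P01022075 (chr17:17481706-17482457, R) read 8.16 to 8.40 over the 8 arrays. The 2 other detected probes of that name also lay high, A_30_P01025369 at 7.56 to 7.77 and A_30_P01018662 at 6.73 to 6.87, so 3 probes of 1 short region were all bright. A_30_P01030669 (chr7:108209996-108216032, R) read 7.92 to 8.39, and A_30_P01031448 (chr14:78924115-78938125, F) 7.89 to 8.29. On A_30_P01022075, A_30_P01030669 and A_30_P01031448 every set 2 array lay above every set 1 array, by gaps of 0.0345, 0.131 and 0.141. A_30_P01032305 (chr8:48476637-48492537, F) had a wider gap of 0.914, at 7.63 to 7.73 in set 1 and 8.65 to 8.93 in set 2. On A_30_P01026458 alone of the 5 the sets overlapped.

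Around the detection threshold the rule kept dim probes and left out some bright ones. Just inside it, A_30_P01031723 (chr7:66874527-67012170, R) was well above background on the PBS arrays alone, at -5.08 and -4.02. A_30_P01022301 (chr17:35080914-35090009, F) was likewise well above background on those arrays alone, at -4.85 and -4.07. A_30_P01017468 (chr11:87841800-87858725, R) read -5.02 and -4.01 with PBS and was also flagged on 1 Fc array, at -3.58. Just outside, A_30_P01018806 (chr2:104398943-104412968, F) read 6.95 on the set 1 PBS array and -7.27 to -4.22 on the other 7. A_30_P01025875 (chr17:41231055-41249764, R) reached -0.34 with Ecrg4(133-148) in set 1 against -3.91 in set 2. A_30_P01019809 (chr10:83181374-83249774, R) was well above background on all 4 set 1 arrays, up to -0.73, and on none of set 2. These values show how a probe can be bright on 1 array or in 1 set and still fall outside the rule.

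Detection was spread over the genome and both strands. It ranged from 17.3% of region probes on chromosome 9 to 34.0% on chromosome 14, with 25% on X. Of F probes 24.6% were detected and of R probes 26.7%, which gave 2014 F and 2138 R probes. Of 1067 regions with probes for both strands, 377 had a detected probe on both, 214 on F alone, 232 on R alone and 244 on neither. In the 823 with any, both strands were detected in 45.8%. Of the 2473 regions probed on 1 strand, 990 had a detected probe.

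Detected probes of 1 name share a region and are not independent of each other. A detected probe was found for 2190 names in 1813 regions, with 1 such probe for 1193 names, 2 or more for 997 and at most 10. Among the 1984 of these names that have at least 2 probes, all probes were detected in 367, 1 probe in 987 and some but not all in 630. Names with a detected probe were longer, with a median of 12298 bases against 8577 bases for the 2417 names without. Probes of regions of up to 1000 bases were detected in 20.2%, those of 1000 to 5000 bases in 28.1%, of 5000 to 20000 bases in 27.3% and of over 20000 bases in 25.6%.

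The sets differed far more than the treatments, and among region probes the difference ran mostly 1 way. In limma, a linear model fitted to all 25250 probes tested with treatment and set as terms, 2186 of 4145 detected region probes (52.7%) passed an adjusted p of 0.05 for set 2 against set 1, against a background of 58.2% of all probes tested. Of these, 1767 were higher in set 2 (42.6%, background 36.3%) and 419 lower (10.1%, background 21.9%). Passing and over 2-fold were 483 higher (11.7%, background 8.72%) and 95 lower (2.29%, background 6.36%). The median difference was 0.28 (log2) for region probes and 0.12 for all probes, and 74.1% of region probes lay above 0, against 60.5% of all. After quantile normalization the medians were 0.19 and 0.04.

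The 4 treatments gave the set difference alike. Its median over region probes was 0.30 with PBS, 0.26 with Fc, 0.25 with Ecrg4(71-132) and 0.27 with Ecrg4(133-148). For 1670 region probes (40.3%, background 34.4%) all 4 arrays of set 2 lay above all 4 of set 1, and for 374 (9.02%, background 20.5%) all 4 lay below. In 241 region probes (5.81%, background 5.16%) set 2 was over 2-fold higher in every treatment, and in 53 (1.28%, background 4.21%) over 2-fold lower.

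The difference was largest among dim probes, for region probes and for all probes tested. Region probes with a mean signal of -4 or lower had a median of 0.52, those from -4 to -3 one of 0.33, from -3 to -2 one of 0.30, from -2 to 0 one of 0.26, and those above 0 one of 0.13. The same bands over all probes had medians of 0.46, 0.25, 0.20, 0.12 and 0.08. The share of region probes that passed ran the other way, from 37.8% in the dimmest band to 60.1% in the brightest, close to the 36.8% and 61.5% of all probes.

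Probes of 1 name seldom passed in opposite directions, but often only some of them passed. Among 995 names with at least 2 tested probes, every probe passed as higher in 247 and as lower in 57, some but not all passed in 439, none in 239, and probes passed in opposite directions in 33. The SD of the set difference within a name had a median of 0.19, against an SD of 0.70 over all region probes. A median of SDs over few probes each is not the same measure as 1 SD over all, so these values are a description. The 2 strands of a region were less uniform: of 377 regions with tested probes on both strands, the mean difference had the same sign on both in 266. In 121 a probe passed as higher on both strands and in 18 as lower on both, while in 47 probes of the opposite strands passed in opposite directions. Singly, 42.6% of region probes passed as higher and 10.1% as lower. The counts by name and by strand were not tested against these shares.

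Among the probes named here, the widest gap between the sets was at chr8:89996710-90049453. Its F probe A_30_P01024770 read -4.38, -4.87, -5.13 and -4.82 in set 1 and 0.24, 0.21, 1.43 and 0.71 in set 2, again in the order PBS, Fc, Ecrg4(71-132), Ecrg4(133-148). Only the PBS value of set 1 was well above background. The difference was 5.45 (SE 0.34, n = 4 arrays per set, limma adjusted p = 0.00046). A_30_P01024798 (chr8:90048940-90049461, F), in a short region at the end of the first, differed by 5.26 (SE 0.39, limma adjusted p = 0.00070), with 2 of its 4 set 1 arrays well above background, and A_30_P01022123, a second probe of the long region, by 3.70. All 3 lay higher with Ecrg4(71-132) than with Fc in set 2, at 1.04 against -0.19 for A_30_P01022123. In set 1 A_30_P01022123 also read higher, at -2.09 against -3.71, while the other 2 read lower, A_30_P01024798 at -5.53 against -4.90 and A_30_P01024770 at -5.13 against -4.87, below the flag with Ecrg4(71-132). On the opposite strand, A_30_P01033533 (chr8:90000619-90061169, R) read -2.62 to -2.42 on all 8 arrays, a set difference of -0.07.

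Chromosome 1 held the next probes in order. A_30_P01029479 (chr1:85117750-85129200, F) read -3.12 to -2.66 in set 1 and 0.87 to 1.20 in set 2, a difference of 3.87 (SE 0.11, limma adjusted p = 0.00011). Its neighbours in the same name, A_30_P01027577 and A_30_P01018749, differed by 3.65 and 3.32, the second with 2 of 4 set 1 arrays well above background. A_30_P01027120 (chr1:87343550-87362900, F) read -2.93 to -2.34 and then 1.0 to 1.33, a difference of 3.83 (SE 0.13). The overlapping F probe A_30_P01024184 (chr1:87348082-87409907) differed by -0.11, so overlapping probes did not move as 1. A_30_P01024650 (chr1:85304494-85305390, R) differed by 3.76 (SE 0.13), from -5.33 to -4.56 in set 1, where 2 of 4 arrays were well above background, to -1.25 to -0.70 in set 2. In each of these 3 probes the sets did not overlap, and the spread within a set was under 1.

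Of the probes lower in set 2, A_30_P01018420 (chr3:87757295-87774970, F) read 0.44, -0.37, -0.30 and -0.64 in set 1 and -4.44, -4.17, -3.75 and -3.53 in set 2, a difference of -3.76 (SE 0.34, limma adjusted p = 0.0012), with 2 of 4 set 2 arrays well above background. The other 4 probes of the name differed by -2.42, -1.82, -0.26 and -0.02, the last being A_30_P01026280 at 6.65 to 6.83 on all 8 arrays. A single region thus held both a probe with a wide gap and a bright one with none.

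All 3 probes of chr11:119254413-119296960 (F) were lower in set 2, A_30_P01021136 by -3.03 (SE 0.23), A_30_P01022005 by -3.0 (SE 0.24) and A_30_P01019306 by -2.88 (SE 0.19), with limma adjusted p of 0.00071, 0.00084 and 0.00052. A_30_P01022005 read 0.86 to 1.81 in set 1 and -2.28 to -0.71 in set 2. A_30_P01027922 (chr7:111530578-111539097, R) differed by -2.48 (SE 0.33) with 1 of 4 set 2 arrays well above background, and the other probes of its name, A_30_P01024838 and A_30_P01033671, by -1.63 and -1.48.

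Markers of other cell types differed between the sets as well. The summed linear signal of 4 fibroblast markers (Col1a1, Col1a2, Dcn and Lum), relative to the 75th percentile, was 21.9 to 47.4 in set 1 and 0.353 to 0.526 in set 2, and 3 of the 4 passed as lower. The 5 oligodendrocyte markers summed to 35.7 to 38.5 and 91.1 to 110.2, and the 6 astrocyte markers to 28.0 to 40.1 and 72.3 to 76.7. The astrocyte markers did not move as 1: Aldoc and Aldh1l1 passed as higher in set 2 (1.56 and 1.17), and Gfap, Aqp4 and Slc1a2 as lower (-7.02, -4.30 and -1.93). The 4 neuron markers summed to 3.88 to 5.04 and 4.12 to 7.97, with Syt1 on no array, and the 3 endothelial markers to 0.235 to 0.306 and 0.166 to 0.407. The 8 microglial markers summed to 453 to 490.2 and 428 to 512, a sum that rests mostly on Csf1r and Trem2. Of the 8, 5 passed as lower in set 2, Cx3cr1 (-6.62), Tmem119 (-2.28), P2ry12 (-1.70), Aif1 (-1.70) and Gpr34 (-0.49), while Itgam (0.66) and Trem2 (0.37) passed as higher and Csf1r (-0.01) did not pass. Cx3cr1, a chemokine receptor, read 4.58 to 4.71 in set 1 and -3.25 to -0.74 in set 2. The part of these cells in the set difference was not tested, and in such bulk samples fewer cells of a type and less RNA per cell cannot be told apart.

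No region probe passed an adjusted p of 0.05 in any of the 6 comparisons of treatments, nor did any of the 25250 probes tested (background 0% in each; limma with 1 mean per treatment, 4 residual degrees of freedom). With the set as a block the counts were again 0, and the lowest adjusted p was 0.194 for Ecrg4(71-132) against Fc, 0.849 for Ecrg4(133-148) against Fc, and 0.115 and 0.557 for the 2 fusions against PBS. At an unadjusted p of 0.05 the limma fit without the block held 107 region probes for Ecrg4(71-132) against Fc (background 3.03%), 36 for Ecrg4(133-148) against Fc (background 0.459%) and 50 for Ecrg4(133-148) against Ecrg4(71-132) (background 0.661%). With the block these became 589 (background 17.9%), 253 (background 5.13%) and 321 (background 6.1%). Against PBS the fit without the block held 19 for Fc (background 0.25%), 170 for Ecrg4(71-132) (background 4.69%) and 57 for Ecrg4(133-148) (background 0.923%). With the block these became 137 (background 1.9%), 708 (background 23.1%) and 331 (background 8.8%). With the block and without the first Ecrg4(71-132) array, 112 region probes passed for Ecrg4(71-132) against PBS (2.7%, background 4.15%), and 1 passed without the first PBS array (background 0.0158%). The standard errors and intervals of treatment differences given below come from the fit without the block, so they include the gap between the sets. The probes that differed in both sets are therefore given as values. Both fusions are set against the same Fc arrays, and 3 comparisons share the PBS arrays, so the comparisons are not independent.

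Few region probes differed by over 2-fold the same way in both sets. For Ecrg4(71-132) against Fc, 12 lay higher (background 0.396% of all probes; 0.29% of region probes) and 23 lower (background 0.269%; 0.555% of region probes). For Ecrg4(133-148) against Fc, 7 lay higher (background 0.0475%) and 3 lower (background 0.0277%). Many rest on a treatment with no array well above background: 3 of the 12 and 16 of the 23 for Ecrg4(71-132), and 6 of the 7 and 2 of the 3 for Ecrg4(133-148). On the 3101 region probes well above background on all 8 arrays, 3 lay higher (0.0967%, against 0.294% of all such probes) and 2 lower (0.0645%, against 0.0815%) with Ecrg4(71-132). With Ecrg4(133-148) none did, against 0.00905% (higher) and 0% (lower) of all such probes. A signal not well above background gives only a bound. With such signals raised, where they lay lower, to a floor, the lowest signal that their array called well above background, 10 of the 12 (background 0.356%) and 2 of the 23 (background 0.095%) were still over 2-fold in both sets for Ecrg4(71-132), and 3 of the 7 (background 0.0238%) and 1 of the 3 (background 0.00396%) for Ecrg4(133-148). Differences below that involve such a signal are differences of the measured signals. Folds written as at least are bounds at the floor on the mean over both sets, and 1 set alone can lie under them. With normexp background correction the total of 35 for Ecrg4(71-132) became 4, and the total of 10 for Ecrg4(133-148) became 0. The share of all probes under normexp is not given, so whether this fall is particular to region probes cannot be told.

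The differences were wider in set 2. For Ecrg4(71-132) against Fc, 153 region probes exceeded 2-fold in set 1 (3.69%, against 1.78% of all probes) and 364 in set 2 (8.78%, against 8.0%). For Ecrg4(133-148) they were 76 (1.83%, against 0.935%) and 230 (5.55%, against 3.77%). The medians over region probes were -0.05 in both sets for Ecrg4(71-132), and -0.02 and -0.04 for Ecrg4(133-148), against -0.02 and -0.03, and 0.01 and -0.02, over all probes. The sign was the same in both sets for 56.9% of region probes with Ecrg4(71-132) and for 55.0% with Ecrg4(133-148), against 64.7% and 58.8% of all probes.

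Several probes of 1 locus, chr16:84702353-84710928, lay higher with Ecrg4(71-132) in both sets. The span has 6 detected probes on both strands: A_30_P01017643, A_30_P01018526 and A_30_P01020928 on R and A_30_P01024571 on F, with A_30_P01028475 in chr16:84707202-84707748 (F) and A_30_P01032196 in chr16:84708695-84708806 (F). A_30_P01032196 read -3.52 with PBS, -2.49 with Fc, -0.75 with Ecrg4(71-132) and -2.30 with Ecrg4(133-148) in set 1. In set 2 it read -3.89, -4.04, 2.58 and -0.93, with PBS and Fc not well above background. Ecrg4(71-132) was the highest treatment in both sets, with a difference from Fc of 1.74 in set 1 and 6.62 in set 2. The mean difference was 4.18 (SE 1.20, 95% interval 1.16 to 7.20), with a limma adjusted p of 1.0.

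On the R probes of that locus Ecrg4(71-132) was likewise the highest treatment in both sets. A_30_P01017643 read -3.81, -3.05, -1.78 and -3.07 in set 1 and -4.89, -5.17, 0.95 and -2.91 in set 2. A_30_P01018526 read -3.95, -3.0, -1.78 and -3.11, and then -4.54, -4.65, 0.39 and -2.73. A_30_P01020928 read -4.0, -3.57, -2.11 and -3.23, and then -5.34, -5.07, 0.36 and -1.50. In set 2 none of the 3 was well above background with PBS or Fc. Their differences from Fc were 1.27, 1.22 and 1.45 in set 1 and 6.12, 5.04 and 5.44 in set 2, the latter 5.10, 4.54 and 4.52 with Fc at the floor.

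The F probe A_30_P01028475 was well above background with Ecrg4(71-132) alone, at -4.30 in set 1 and -0.69 in set 2. Its mean signal over both sets was at least 4.44-fold that of Fc, but its set 1 signal lay under 2-fold above the Fc floor of -5.14. A_30_P01024571, on F across the whole region, differed less in set 1, at -3.37 against -3.85 with Fc, and read -0.56 against -4.19 in set 2. Ecrg4(133-148) lay below Ecrg4(71-132) in all 6 probes and both sets, by -1.55 and -3.51 for A_30_P01032196.

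Other region probes lay higher with Ecrg4(71-132) in both sets. A_30_P01023276 (chr13:15947521-15999246, F) read -5.86, -6.43, -3.98 and -4.28 in set 1 and -3.45, -3.02, 0.35 and -1.30 in set 2. It lay above Fc by 2.45 and 3.37 with Ecrg4(71-132) and by 2.15 and 1.72 with Ecrg4(133-148). The set 1 PBS and Fc arrays were not well above background on this probe. With Fc at the floor the set 1 differences were 1.16 with Ecrg4(71-132) and 0.86, under 2-fold, with Ecrg4(133-148). A_30_P01018532 (chr10:69669025-69686275, R) was well above background on all 8 arrays and lay above Fc by 1.15 and 2.41, at 2.01 in set 1 and 1.82 in set 2. A_30_P01020139 (chr1:152001112-152012796, R) lay above Fc by 1.43 and 3.95, at least 3.95-fold, and was well above background on 1 PBS array and both Ecrg4(71-132) arrays. A_30_P01019941 (chr10:18047851-18049641, R) lay above Fc by 1.64 and 2.70, while its 2 companion probes in that name read -2.61 to -2.23 and -3.39 to -2.89 throughout. On A_30_P01019941 no Fc array and only the set 2 Ecrg4(71-132) array was well above background, so no bound on its fold is given. Without the second Ecrg4(71-132) array the mean difference of its measured signals changed sign, from 2.17 to -0.03.

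In the fit without the block, smaller differences with little spread, also between the sets, gave the smallest unadjusted p-values. A_30_P01019478 (chr16:4867322-4874772, F) read -0.34, 0.06, 1.14 and 0.46 in set 1 and -0.71, -0.58, 0.96 and -0.03 in set 2, a difference from Fc of 1.31 (SE 0.30, 95% interval 0.56 to 2.07). The 2 Ecrg4(71-132) arrays lay above the other 6. The second F probe of the name, A_30_P01019380, read -2.79 to -2.42 on all 8 arrays. On the opposite strand, A_30_P01027969 (chr16:4871449-4874336, R) lay lower with Ecrg4(71-132) than with PBS, by -1.03 in set 1 and -1.21 in set 2.

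At chr2:128142035-128142481 (R), A_30_P01027743 read -1.58, -1.38, -0.79 and -1.05 in set 1 and -1.64, -1.55, -0.30 and -0.99 in set 2. Its difference from Fc with Ecrg4(71-132) was 0.92 (SE 0.20, 95% interval 0.42 to 1.42). A_30_P01029173 of the same name gave 0.87 (SE 0.20), and A_30_P01026716 lay above PBS by 1.11 (SE 0.20). The 3 probes of the neighbouring R name chr2:128137419-128141735 ran the same way in set 2, with A_30_P01023785 at -0.57 with Fc and 0.29 with Ecrg4(71-132), and at -1.09 and -0.78 in set 1. On all 6 probes Fc lay above PBS and Ecrg4(71-132) above Fc in both sets.

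Against PBS, Ecrg4(71-132) had 22 region probes over 2-fold higher in both sets (background 0.661%) and 22 lower (background 0.416%), which became 21 (background 0.657%) and 5 (background 0.214%) with dim signals at the floor. Of the 22 higher, 11 were well above background on all 8 arrays (0.355% of such region probes, against 0.57% of all such probes). Of the 22 lower, 3 were (0.0967%, against 0.167%). At chr1:175705225-175717250 (R) 4 of 5 tested probes were among the 22 higher. A_30_P01027543 read 2.65, 3.34, 4.02 and 3.28 in set 1 and 0.93, 1.11, 3.50 and 2.11 in set 2, which is 1.37 and 2.57 above PBS. A_30_P01018824, A_30_P01022549 and A_30_P01023338 lay above PBS by 1.35 and 2.01, 1.29 and 2.66, and 1.26 and 2.13. The fifth, A_30_P01024163, was the brightest, at 5.32 with PBS and 6.27 with Ecrg4(71-132) in set 1 and 4.24 and 5.28 in set 2. Ecrg4(71-132) was highest on every one of the 5 probes in both sets, and Fc lay above PBS on all 5 in set 1 and on 2 of 5 in set 2.

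Among region probes that lay lower with Ecrg4(71-132) than with Fc, A_30_P01020121 (chr5:123439974-123448354, F) had the smallest unadjusted p in the fit without the block. With the block its unadjusted limma p was 0.00091, above 0.00030 for A_30_P01029294 (chr13:94182877-94203852, F), 0.00032 for A_30_P01021577 and 0.00038 for A_30_P01025442. A_30_P01029294 lay below Fc by -0.70 and -0.96, with no Ecrg4(71-132) array well above background. A_30_P01020121 read -2.69, -2.68, -3.94 and -3.13 in set 1 and -2.72, -2.94, -3.69 and -3.20 in set 2. The difference from Fc was -1.0 (SE 0.16, 95% interval -1.41 to -0.60), with a limma adjusted p of 1.0. A_30_P01021577 of the same name gave -0.65 (SE 0.12), and the third, A_30_P01019163, read -4.54 against -4.01 in set 1 and -5.35 against -4.51 in set 2. On each of these 3 probes the 2 Ecrg4(71-132) arrays were the lowest of the 8, although on A_30_P01019163 neither was well above background.

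At chr14:73729977-73751877 (R), 4 of 7 tested probes lay over 2-fold below Fc in both sets. A_30_P01031812 was well above background on all 8 arrays, at -2.74, -2.54, -3.67 and -3.16 in set 1 and -1.20, -1.50, -3.08 and -2.14 in set 2. A_30_P01018679, A_30_P01032149 and A_30_P01032430 differed from Fc by -1.11 and -1.59, -1.11 and -2.30, and -1.13 and -1.39, but none of the 3 was well above background with Ecrg4(71-132), and the Fc signals were at least 1.36-fold, 1.32-fold and 1.36-fold higher. In the overlapping name chr14:73746324-73749119 (R), A_30_P01018036 and A_30_P01024607 differed by -1.05 and -1.52, and by -1.29 and -1.73, the second with no Ecrg4(71-132) array well above background and a bound of at least 1.07-fold. A_30_P01024173 of the long name did not follow, at -1.88 to -1.80 in set 1 and -1.47 to -1.19 in set 2.

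Further low values came from probes near background. A_30_P01018576 (chrX:11690182-11690581, R) lay below Fc by -2.87 and -2.02, with the Fc signal at least 1.92-fold higher. A_30_P01025442 (chr4:119406384-119407856, F) differed by -2.25 and -1.44, with the set 1 Ecrg4(71-132) array not well above background, and was also higher in set 2, by 2.17. A_30_P01020400 (chr8:82854412-82919089, R) differed by -1.34 and -1.30, again with that array not well above background, and its set difference was 3.76. Its mean difference of -1.32 became 0.68 without the first Ecrg4(71-132) array and 0.66 without the second Fc array, since the remaining arrays then stand in unequal sets. The 3 probes of the nearby name chr8:82836971-82849309 (R) had set differences of 3.07 to 3.12 and also read lowest with Ecrg4(71-132) in both sets, A_30_P01022866 at -1.07 with Fc and -1.56 in set 1, and 2.23 and 1.04 in set 2. A_30_P01024286 (chr15:86038874-86039233, R) lay below PBS by -1.49 and -1.90, with the PBS signal at least 2.41-fold higher, since no Ecrg4(71-132) array was well above background. Its unadjusted limma p of 0.00044 against PBS, without the block, was the smallest among region probes lower with Ecrg4(71-132), and its adjusted p was 1.0.

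With Ecrg4(133-148), the region probes over 2-fold above Fc in both sets were mostly ones with no Fc array well above background. A_30_P01025529 (chr14:78936896-78937160, R) read -7.18, -7.07, -6.11 and -3.19 in set 1 and -6.45, -5.80, -6.37 and -2.50 in set 2, in the usual order. Only the Ecrg4(133-148) arrays were well above background, and their signal was at least 3.49-fold that of Fc. The R probe A_30_P01029353 of the surrounding region chr14:78924115-78938125 read -4.55 with Ecrg4(133-148) and -4.16 with Fc in set 1, and -3.35 and -3.24 in set 2. The higher signal was therefore on 1 probe and not on its neighbour.

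A_30_P01019584 (chr8:128933150-128943375, F) read -4.31 and -0.90 with Ecrg4(133-148) and -7.33 and -5.92 with Fc, at least 4.12-fold on the mean. In set 1 the Ecrg4(133-148) signal of this probe lay under 2-fold above the Fc floor of -5.14. A_30_P01027558 (chr7:99879368-99889978, F) read -3.75 and -3.12 against -6.08 and -6.05, at least 2.31-fold, while 2 other F probes of its name, A_30_P01019526 and A_30_P01033538, read -2.07 to -1.39 on all 8 arrays. A_30_P01023345 (chr4:3756167-3757483, R) and A_30_P01029721 (chr9:34195675-34196336, R) were at least 2.12-fold and 1.75-fold above Fc. The limma adjusted p was 1.0 for each.

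Lower with Ecrg4(133-148) than with Fc, A_30_P01025131 (chrX:18744367-18853992, R) was well above background on all 8 arrays, at -2.82 against -1.98 in set 1 and -3.04 against -2.26 in set 2, a difference of -0.81 (SE 0.23, 95% interval -1.38 to -0.24). A_30_P01032775 (chrX:92149320-92151107, R) differed by -2.81 and -1.02, with Fc at least 2.33-fold higher, and was well above background on both Fc arrays and 1 PBS array. A_30_P01020960 (chr17:29183003-29217681, R) and A_30_P01023066 (chr5:15033568-15033987, F) differed by -1.05 and -1.17, and by -1.0 and -1.29. The first had no Ecrg4(133-148) array and only the set 1 Fc array well above background, so no bound on its fold is given. The second had 1 Ecrg4(133-148) array well above background.

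Set against each other at the same dose and time, the 2 fusions differed by over 2-fold in both sets on 23 region probes. Ecrg4(133-148) was higher on 14 (background 0.119%) and lower on 9 (background 0.36%). None of the 23 was well above background on all 8 arrays, against 0.00905% (higher) and 0.24% (lower) of all such probes. With dim signals at the floor 1 of the 14 (background 0.0277%) and 6 of the 9 (background 0.341%) were still over 2-fold in both sets. The lower ones include all 6 probes of the chromosome 16 locus, with A_30_P01018526 lower by -1.34 and -3.11. The higher ones include A_30_P01025529, on which no Ecrg4(71-132) array was well above background and Ecrg4(133-148) was at least 2.62-fold higher. The fusions differ in the stretch of Ecrg4 they carry.

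Fc itself differed from PBS over 2-fold in both sets on 3 region probes, 2 higher (background 0.0356%) and 1 lower (background 0.0911%). A_30_P01030868 (chr17:13220550-13236900, F) had no PBS array well above background, and Fc was at least 1.75-fold higher, under the 2-fold of the measured signals. A_30_P01032775 lay higher by 1.26 and 1.32, with 1 PBS array well above background. A_30_P01031172 (chr14:21621875-21638625, R) had no Fc array well above background, and PBS was at least 3.67-fold higher. With dim signals at the floor only A_30_P01032775 was still over 2-fold in both sets (1 higher, background 0.0198%, and 0 lower, background 0.0554%). A_30_P01027239 (chr9:113650590-113670786, F), well above background on all 8 arrays, lay above PBS by 0.59 and 0.50 (mean 0.55, SE 0.20). Ecrg4(133-148) against PBS gave 10 higher (background 0.115%) and 3 lower (background 0.174%), or 6 (background 0.0832%) and 1 (background 0.099%) at the floor, with A_30_P01025529 at least 4.72-fold and A_30_P01019584 at least 5.57-fold above PBS.

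Named long noncoding RNAs have probes of their own on the array, matched here through RefSeq accessions. Of 59 listed, 35 were on the array and 26 met the detection rule. For set 2 against set 1, 13 of the 26 passed as higher (background 36.3%), 3 as lower (background 21.9%) and 10 did not pass. The median over the 26 was 0.27, against 0.28 for region probes. It was 0.15 for all 461 RefSeq noncoding probes tested and 0.12 for all probes. Neat1, the scaffold of nuclear paraspeckles, read 4.58 to 4.68 in set 1 and 6.57 to 6.83 in set 2 (difference 2.09, SE 0.05, limma adjusted p = 0.00010). Malat1, a nuclear RNA of splicing speckles, read 1.23 to 1.32 and 1.58 to 1.72.

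In the 6 treatment comparisons none of the 26 passed or exceeded 2-fold in both sets. The 3 with the largest size against Fc for Ecrg4(71-132) were Mirt1 at -0.95 in set 1 and -1.33 in set 2, Morrbid at 0.56 and 1.06, and Pvt1 at -0.12 and -1.04. With the set as a block their means were -1.14 (SE 0.20), 0.81 (SE 0.13) and -0.58 (SE 0.28), with limma adjusted p of 0.221, 0.214 and 0.334. For Ecrg4(133-148) they were Mirt1 at -0.49 and -0.63, Ftx at -0.44 and -0.41, and Morrbid at 0.27 and 0.45. Their means were -0.56 (SE 0.20), -0.42 (SE 0.07) and 0.36 (SE 0.13) with the block, each with a limma adjusted p of 0.849. Morrbid, a noncoding RNA known to control the survival of short-lived myeloid cells, read -1.55, -1.23, -0.67 and -0.96 in set 1 and -1.39, -1.29, -0.23 and -0.84 in set 2, with Ecrg4(71-132) highest in both.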

How the data were processed

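Total RNA of 8 samples was labelled with Cy3 and hybridised to 1-colour Agilent arrays. Per the file headers and the submitters' processing notes, Agilent Feature Extraction 11.0.1.1 made the deposited scanner files, whose processed signals are background-subtracted intensities on a linear scale, with flags for spots well above background, saturated (0 spots) or outlying. The authors also deposited a table of log2 values of the same arrays. Its scaling step was not given in the sources used here, and it served as an alternative.

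From the intensities, log2 minus each array's 75th percentile over non-control spots was computed, outlying spots were left out, and each region probe has 1 spot. Probes of 1 region were kept apart. Limma 3.58.1 in R 4.3.3 (lmFit, eBayes) was fitted to the 25250 probes detected by the flag rule and complete, with 1 mean per treatment (4 residual degrees of freedom), or with treatment and set for the set difference (3), and Benjamini-Hochberg adjustment at 0.05 over all of them. A count of probes over 2-fold in both sets is a description beside the same share of all probes. The number of arrays, 2 per treatment, limits the precision.

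The set numbers come from the labels. Differences between the sets correlated between treatments with r of 0.77 to 0.86 over all probes and 0.62 to 0.68 over region probes (across probes, which are not independent replicates; threshold 0.1), so the numbers pair the samples.

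Named probes follow 1 rule, with those of 1 chromosome not reported here: up to 5 passing probes in each direction by size, or else the 3 with the smallest unadjusted p; up to 5 over 2-fold in both sets by the smaller difference; the 5 brightest; and 3 on each side of the detection threshold. Other probes of the same or overlapping regions, and the other probes over 2-fold in both sets, are named beside them after their values were seen. The unadjusted p-values of the rule come from the fit without the block. The probes and lists were chosen with earlier results of these data known. The code was tested on simulated data. Alternatives were quantile normalization, normexp with an offset of 50, probes on all 8 arrays, the deposited table, the brightest probe per name, the set as a block, 1.5-fold, leaving out each array, and raising dim signals to the floor. A listed marker gene is not reported here and is in no sum.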

Additional observations from a re-analysis of the deposited data

How the results depend on the processing

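All 86 results for named probes kept their direction and side of the adjusted p of 0.05 under quantile normalization, normexp and the deposited log2 table. The same held, where computed, with the set as a block (76), the brightest probe per name (53) and probes on all 8 arrays (18). For treatments this means only that none passed, and it does not cover the 2-fold threshold. With normexp, differences of Ecrg4(71-132) from Fc fell under 2-fold on A_30_P01020400 (-1.32 to -0.56) and A_30_P01029534 (-1.49 to -0.48). Leaving out 1 array reversed 4 of the 86 results. For Ecrg4(71-132) against Fc, A_30_P01019941 ran from -0.027 to 4.36, A_30_P01029534 from -3.03 to 0.052 and A_30_P01020400 from -3.32 to 0.68. Against PBS A_30_P01020400 ran from -3.53 to 0.48.

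Probes passing for the set difference were 1124 of 2187 with the brightest probe per name, and 1689 to 2133 of 4145 without 1 array. With the set as a replicate block, which the shared set numbers make the paired fit, all 6 treatment comparisons stayed at 0 passing region probes (unadjusted counts stand in the report). Leaving out 1 array in that paired fit, chosen after seeing the data, gave 0 to 112 for Ecrg4(71-132) against PBS, with 1 without the first PBS array, 112 without the first Ecrg4(71-132) array and 0 otherwise, and 0 in the other 5 comparisons. A treatment left with 1 array is assumed to vary like the others.

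Counts over 2-fold in both sets are given in the order Ecrg4(71-132) against Fc, Ecrg4(133-148) against Fc, Ecrg4(133-148) against Ecrg4(71-132), Fc against PBS, Ecrg4(71-132) against PBS and Ecrg4(133-148) against PBS. They were 35, 10, 23, 3, 44 and 13 as reported, 4, 0, 1, 0, 12 and 1 with normexp, 5, 0, 0, 0, 14 and 1 on probes well above background on all 8 arrays, 142, 37, 88, 25, 199 and 66 at 1.5-fold, and 12, 4, 7, 1, 26 and 7 with signals not well above background raised to the floor, an alternative chosen after seeing the data. The brightest probe per name gave 20, 6 and 15 for the first 3 and 20 for Ecrg4(71-132) against PBS. The normexp fall's cause was not tested, and the fewer probes of the other settings are part of their construction. Shares of all probes under normexp, at 1.5-fold and with the brightest probe per name are not given. Those counts are therefore no result about region probes in particular. No such count exists without 1 array, which leaves a set with no pair. Detected region probes were 7565 if 1 array sufficed and 3103 if all 8 were needed. Signal over background limits the dim probes, whose measured differences are not bounds. Where a fold is given as a bound at the floor, 1 treatment has no array well above background.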
